A study of Mus musculus with 4 samples.

Results

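The MHC class II genes encode the cell surface molecules that present peptides from internalised proteins to CD4+ T cells. The list held 8 genes. These were the chain genes H2-Aa, H2-Ab1, H2-Eb1 and H2-Ea, the chaperone genes H2-DMa, H2-DMb1 and Cd74, and the transactivator gene Ciita. A probe set was taken as a member where its gene symbol in the platform annotation was exactly one of these names. By this rule 7 of the 8 genes had a probe set of their own, with 17 probe sets in all, out of 18193 genes and 45037 probe sets. H2-DMb1 had none, because the probe sets that carry its name also carry that of H2-DMb2. The tissue was mammary, from mice labelled STAT5 KO (2 arrays) and of mice labelled STAT5 WT (2 arrays), and the design text speaks of 2 mice of each genotype. All were collected at 6 days, an interval whose start is not named in the text. The labels give no strain, age, sex, parity or treatment, no promoter or Cre, and no statement of which STAT5 gene or which part of it is lost in KO.

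A class II molecule is a pair of an alpha and a beta chain. In the endoplasmic reticulum the pair is held by the invariant chain, the product of Cd74, which blocks the peptide groove. In endosomes the invariant chain is cut down, and the DM molecule, a pair of H2-DMa and H2-DMb products, exchanges its remnant for a peptide. B cells, dendritic cells and macrophages carry class II constitutively or after activation, and interferon gamma induces it in many other cells, in each case through the product of Ciita.

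Signals of Stat5a stood at 1836 and 861 on KO replicates 1 and 2, against 2307 and 2061 on WT replicates 1 and 2. Stat5b gave 1069 and 712 on the KO arrays, against 1522 and 1506 on the WT arrays. Both were lower on both KO arrays and neither passed the threshold (limma adjusted p = 0.246 and 0.102). Array medians ran from 121 to 131, and values are scaled to a common level by the authors, so a signal is relative to the rest of its array. Krt8, a keratin on the list of mammary epithelium markers, gave 4378 and 7431 on the KO arrays, against 5248 and 6253 on the WT arrays. Its KO minus WT difference on the log2 scale was -0.01, but the median over that list was -0.50. Of the 11 genes of that list, 5 were lower and 1 higher on both KO arrays, beside 24.8% and 23.3% of all genes. Over all probe sets, a gap of at least 3 on the log2 scale from the 3 other arrays was found for 1 to 3 probe sets above and 1 to 3 below on each of the 4 arrays. WT replicate 1 stood apart for H2-Ea, described last among the chains, and the values of the other genes are therefore summarised without H2-Ea and given without that array as well.

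Class II chain promoters carry a conserved module whose elements include an X box, bound by RFX, and a Y box with an inverted CCAAT core, bound by NF-Y. Ciita binds no DNA itself and acts through the proteins assembled there. The promoters of H2-Aa, H2-Eb1 and H2-DMb1 are shown because these members share this module. Each sequence is from RefSeq on GRCm38.p6, from 250 bases before the transcription start to 50 after it, and reads along the gene's own strand. The capitals mark GNAACT, part of the X box region, and then TGATTGG, which holds the Y box core.
H2-Aa, chr17:34287774-34288073, minus strand: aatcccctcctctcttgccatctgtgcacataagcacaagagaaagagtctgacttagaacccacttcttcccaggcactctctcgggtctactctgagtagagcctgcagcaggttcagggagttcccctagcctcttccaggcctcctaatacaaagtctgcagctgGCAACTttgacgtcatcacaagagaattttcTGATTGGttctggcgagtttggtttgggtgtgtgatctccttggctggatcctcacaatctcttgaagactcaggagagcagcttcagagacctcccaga
H2-Eb1, chr17:34305617-34305916, plus strand: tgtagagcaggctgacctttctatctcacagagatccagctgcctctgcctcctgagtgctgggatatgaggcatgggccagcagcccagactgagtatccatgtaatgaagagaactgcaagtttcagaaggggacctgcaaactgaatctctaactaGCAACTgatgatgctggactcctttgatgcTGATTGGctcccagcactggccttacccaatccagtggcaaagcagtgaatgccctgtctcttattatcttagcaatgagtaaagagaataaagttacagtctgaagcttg
H2-DMb1, chr17:34152941-34153240, plus strand: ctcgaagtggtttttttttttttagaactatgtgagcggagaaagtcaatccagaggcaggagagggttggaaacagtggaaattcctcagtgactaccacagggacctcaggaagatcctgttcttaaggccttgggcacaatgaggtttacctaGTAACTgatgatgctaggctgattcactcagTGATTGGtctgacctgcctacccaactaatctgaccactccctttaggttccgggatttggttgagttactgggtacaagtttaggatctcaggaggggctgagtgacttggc

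TGATTGG began 50 bases before the start in H2-Aa, 61 in H2-Eb1 and 63 in H2-DMb1. In the 3 promoters GNAACT began 31, 30 and 31 bases ahead of it. Both strands were searched, the 2 motifs do not overlap, and the letters were chosen after these promoters had been read. Of 32851 promoters of this length, 7.82% held TGATTGG, 42.8% held GNAACT, and 0.414% held GNAACT within 60 bases ahead of TGATTGG on the same strand. Both RefSeq promoters of H2-DMa held no TGATTGG in this window. Promoters of H2-Ab1, H2-Ea, Cd74 and Ciita are not shown.

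Transcripts of 6 members, all with a probe set except H2-Ea, stood in KO at 57.0% to 74.3% of the WT level, each by its brightest probe set. Differences between KO and WT are given as log2(signal + 16), which understates the change of dim genes, and were tested by limma, with p-values adjusted by Benjamini-Hochberg over 22519 probe sets. The median difference of these 6 genes was -0.64, and it was -0.64 over the 7 genes with H2-Ea, beside -0.01 over all genes. Against the WT mean the median of the 6 genes stood at -0.63 on KO replicate 1 and at -0.66 on KO replicate 2, with WT replicates 1 and 2 at 0.08 and -0.08. Of the 17 member probe sets, 14 had both KO arrays below both WT arrays, which held for 25.4% of all probe sets on the array. It held for 10 of the 11 tested probe sets that do not belong to H2-Ea. Of the 17, 12 were tested and 1 passed an adjusted p of 0.05, the probe set of H2-Eb1, where 2.0% of tested probe sets passed in either direction and 1.04% passed lower in KO. The members share a regulator and often a cell of origin, so their probe sets are not independent of each other. In tissue RNA, fewer cells of a type and less transcript per cell cannot be told apart.

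**Figure D1:**
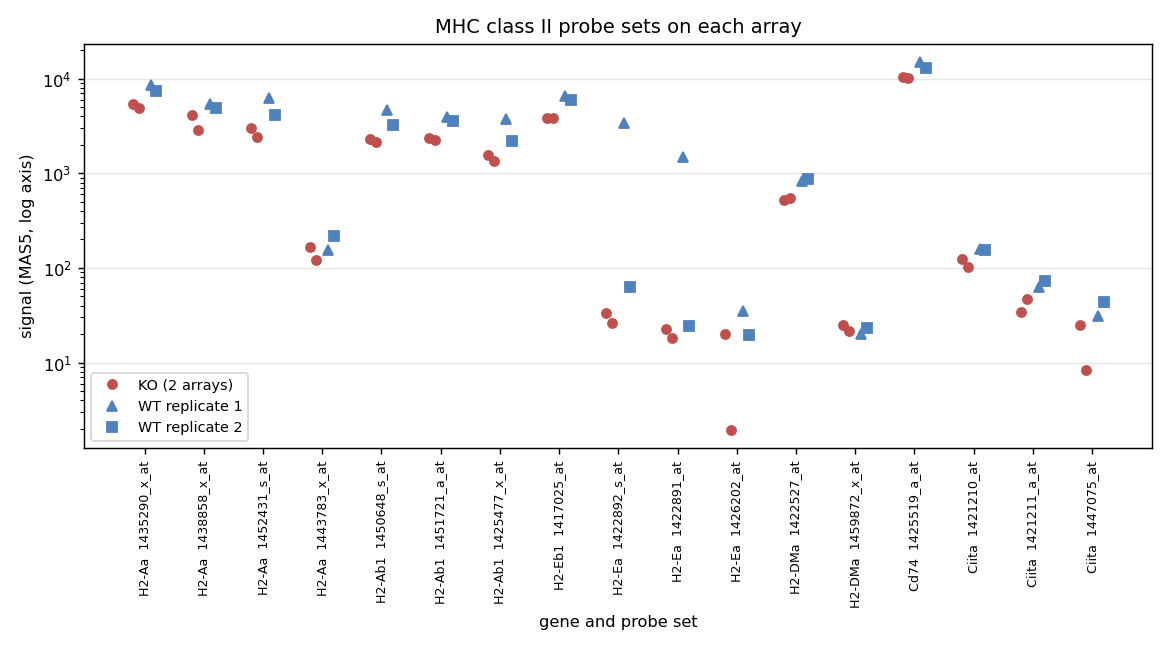
Signals of the 17 MHC class II probe sets on a log axis, with KO arrays as red circles and WT replicates 1 and 2 as a blue triangle and square. KO lies below WT for 14 probe sets, and H2-Ea is bright on WT replicate 1 alone.

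H2-Eb1 encodes the beta chain of the class II molecule H2-E and has 1 probe set, 1417025_at. Its signals were 3851 and 3814 on the KO arrays, against 6537 and 5968 on the WT arrays. The groups did not overlap, and the KO arrays lay closer together than the WT arrays. H2-Eb1 fell to 3833 ± 26.5 in KO, against 6253 ± 403 in WT (SD, n = 2), or 61.3% of the WT level. On the log2 scale KO minus WT was -0.70 (SE 0.12, limma adjusted p = 0.0437). Without WT replicate 1 the difference was -0.64. This call held in 3 of 12 other settings and was lost when any of the 4 arrays was left out (adjusted p = 0.0412 to 0.165 over the 12 settings).

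H2-Ab1, the beta chain of the class II molecule H2-A, has 3 probe sets. The brightest by mean, 1450648_s_at, gave 2326 and 2165 on the KO arrays, against 4623 and 3254 on the WT arrays (log2 difference -0.79, SE 0.18, limma adjusted p = 0.0801). Probe set 1451721_a_at gave 2363 and 2243 on the KO arrays, against 3934 and 3554 on the WT arrays (log2 difference -0.70, SE 0.13, adjusted p = 0.0505). All 3 probe sets separated the genotypes, but they did not give the WT arrays the same distance from each other. The third, 1425477_x_at, gave 1567 and 1349 on the KO arrays, against 3715 and 2204 on the WT arrays (log2 difference -0.97, SE 0.25, adjusted p = 0.0949). Without WT replicate 1 the differences were -0.53 for 1450648_s_at, -0.62 for 1451721_a_at and -0.59 for 1425477_x_at, none of them past the threshold. WT replicate 1 stood at 1.11 times WT replicate 2 for 1451721_a_at, at 1.42 times for 1450648_s_at and at 1.69 times for 1425477_x_at. Names that end in _s_at or _x_at mark probe sets with probes that can match more than 1 transcript, so part of such a signal may come from related sequences.

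H2-Aa, the alpha chain that pairs with the H2-Ab1 product, has 4 probe sets. The brightest, 1435290_x_at, gave 5373 and 4897 on the KO arrays, against 8529 and 7514 on the WT arrays (log2 difference -0.64, SE 0.13, limma adjusted p = 0.0573). Probe set 1452431_s_at gave 2987 and 2443 on the KO arrays, against 6284 and 4188 on the WT arrays (log2 difference -0.92, SE 0.21, adjusted p = 0.0774). Probe set 1438858_x_at gave 4102 and 2900 on the KO arrays, against 5412 and 4963 on the WT arrays (difference -0.59, adjusted p = 0.146). These 3 probe sets kept KO below WT without overlap, and none passed the threshold in the values as deposited. Without WT replicate 1 their differences were -0.55 for 1435290_x_at, -0.63 for 1452431_s_at and -0.52 for 1438858_x_at. KO replicate 1 decided the last of these, which was -0.83 and past the threshold without it (adjusted p = 0.0405) and -0.34 without KO replicate 2. The dim 1443783_x_at overlapped between groups, with 168 and 121 on the KO arrays and 155 and 218 on the WT arrays. As with H2-Ab1, the WT arrays lay closer in some probe sets of the same gene than in others, WT replicate 1 standing at 1.09 to 1.14 times WT replicate 2 in 1438858_x_at and 1435290_x_at and at 1.50 times in 1452431_s_at.

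H2-Ea, the alpha chain that pairs with the H2-Eb1 product, was bright on WT replicate 1 alone. Probe set 1422892_s_at gave 33.8 and 26.0 on the KO arrays, against 3391 on WT replicate 1 and 62.5 on WT replicate 2. Probe set 1422891_at gave 22.5 and 18.4 on the KO arrays, against 1474 on WT replicate 1 and 24.3 on WT replicate 2. WT replicate 1 was thus 54.2 times and 60.6 times as bright as the highest of the 3 other arrays. No other probe set on the array set WT replicate 1 as far above the rest, the next being 1 of Amigo2 with a gap of 3.07 on the log2 scale, against 5.44 and 5.21 for H2-Ea. The third H2-Ea probe set, 1426202_at, was dim on every array, at 20.3 and 1.96 on the KO arrays and at 35.2 and 19.8 on the WT arrays.

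The genotype difference of H2-Ea rested on that array. By 1422892_s_at it was -3.50 (SE 1.49, limma adjusted p = 0.262), and with WT replicate 2 as the lone WT array it was -0.78, with a mean under the limit for testing. With WT replicate 1 as the lone WT array it was -6.22, a value set by the bright signal of that array. As background, mice of the H2 b haplotype, C57BL/6 among them, carry a deletion at H2-Ea and make no E alpha chain, whereas strains of some other haplotypes do. The C57BL/6J annotation used here lists H2-Ea as a transcribed pseudogene. The labels name no strain for any of the 4 mice, and whether their haplotypes differ was not tested.

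**Figure D2:**
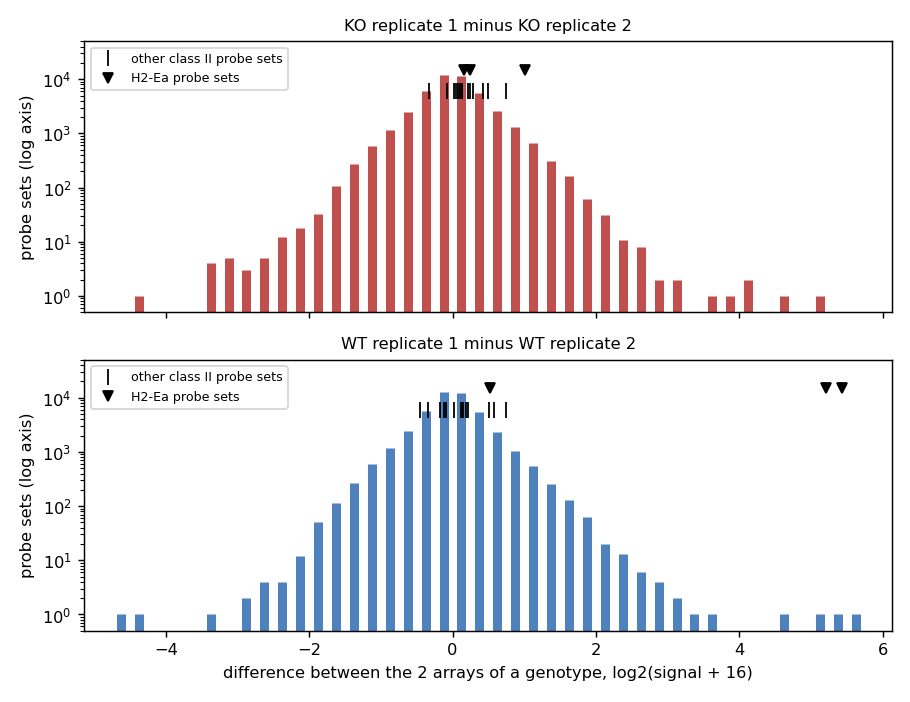
Differences between the 2 arrays of each genotype, log2(signal + 16), as numbers of probe sets on a log axis, for KO (top) and WT (bottom). Black triangles mark the 3 H2-Ea probe sets, of which 2 lie at 5.21 and 5.44 between the WT arrays, and ticks mark the other class II probe sets, which lie within the bulk in both pairs.

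The genes beside H2-Ea in gene order did not stand out on WT replicate 1 in this way. The 10 measured genes on either side were taken after the H2-Ea values had been seen, each by its brightest probe set. Among them the largest gap of WT replicate 1 above all 3 other arrays was 0.50, for H2-Ab1. By other probe sets, WT replicate 1 stood 0.75 above WT replicate 2 for H2-Ab1 (1425477_x_at) and 0.58 above it for H2-Aa (1452431_s_at). On the side of H2-Eb1 the nearest measured gene, H2-Eb2, a further beta chain gene, was dim, at 14.7 and 11.5 on the KO arrays and at 34.4 and 65.6 on the WT arrays. On the other side Btnl2 and BC051142 gave under 41 on every array. The next, Notch4, a Notch receptor gene of vessels, gave 834 and 691 on the KO arrays, against 665 and 578 on the WT arrays. None of these genes had a gap near the 5.44 of H2-Ea, but H2-Eb2, Btnl2 and BC051142 were too dim to be informative. H2-Eb1, H2-Aa and H2-Ab1 were also highest on WT replicate 1, by 0.13, 0.18 and 0.50 on the log2 scale. The cause of the H2-Ea signal was not tested.

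Among the chaperones, Cd74 gave 10500 and 10131 on the KO arrays, against 14922 and 12850 on the WT arrays. The groups did not overlap, and KO stood at 74.3% of WT, the smallest distance among the 6 genes. On the log2 scale KO minus WT was -0.42 (SE 0.12, limma adjusted p = 0.123). H2-DMa, the alpha subunit of the DM exchange factor, gave 525 and 553 on the KO arrays, against 825 and 877 on the WT arrays by 1422527_at. Both pairs of arrays lay close, and KO stood at 63.3% of WT (difference -0.64, SE 0.15, adjusted p = 0.0751). Without WT replicate 1 the differences were -0.32 for Cd74 and -0.69 for H2-DMa. Its other probe set, 1459872_x_at, was dim throughout, at 24.9 and 21.4 on the KO arrays and at 20.0 and 23.2 on the WT arrays.

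H2-DMb1, the beta subunit of DM, could be read only together with its near copy H2-DMb2. The shared probe set 1449580_s_at gave 715 and 670 on the KO arrays, against 826 and 827 on the WT arrays (log2 difference -0.25, limma adjusted p = 0.389). The shared 1418638_at gave 194 and 220 on the KO arrays, against 297 and 253 on the WT arrays (difference -0.38, adjusted p = 0.330). Both were lower on both KO arrays, and neither passed. The 3 probe sets of H2-DMb2 alone had KO at 41.0% to 63.9% of WT and also lay lower in KO without overlap. The signals do not say how much of a shared probe set belongs to H2-DMb1.

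Ciita, the transactivator on which class II transcription depends, was near the array median. By 1421210_at it gave 124 and 101 on the KO arrays, against 159 and 156 on the WT arrays (log2 difference -0.44, SE 0.22, limma adjusted p = 0.324). Probe set 1421211_a_at gave 33.9 and 46.4 on the KO arrays, against 63.3 and 73.4 on the WT arrays. In 1447075_at the KO arrays gave 24.7 and 8.32, against 31.1 and 43.7 on the WT arrays. All 3 probe sets lay lower on both KO arrays, at 44.1% to 71.3% of WT, but the other 2 were under the limit for testing and a part of such dim signals can be background.

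**Figure D3:**
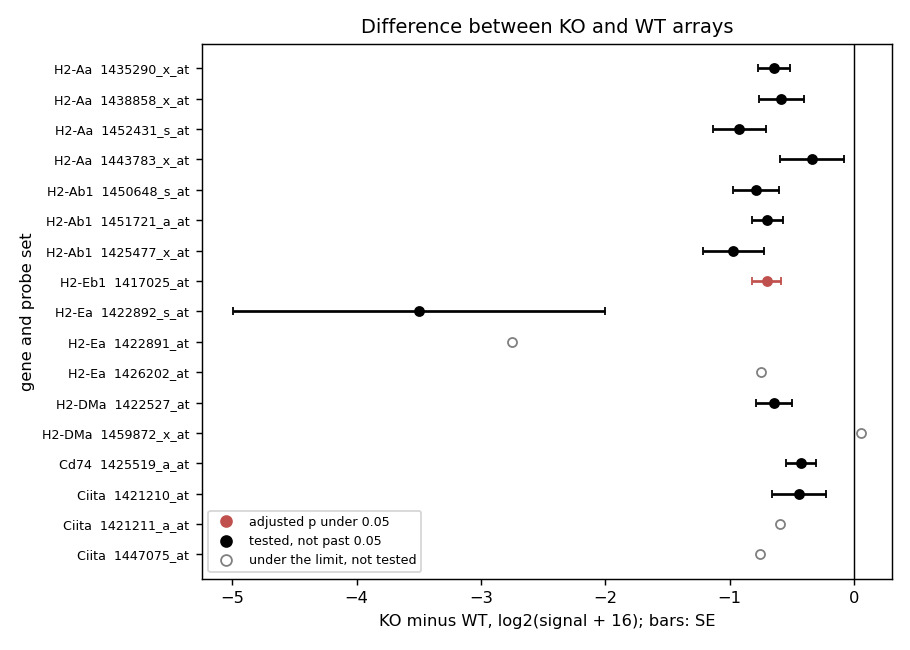
KO minus WT for the 17 class II probe sets on the log2(signal + 16) scale, with the SE from limma as bars. H2-Eb1 (red) is past the threshold at -0.70, open circles were under the limit for testing, and the wide bar of H2-Ea reflects 1 bright WT array.

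In all, 5 member probe sets were under the limit on mean signal (126) and 12 were tested. Of the 12, the 11 that do not belong to H2-Ea had an adjusted p from 0.0437 to 0.536. Without WT replicate 1, the array with the H2-Ea signal, the median of the 6 other genes was -0.54, and no member passed. The median of these 6 genes was thus also below 0 against WT replicate 2 by itself, at a smaller size.

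Other genes of the class II route had differences spread around 0. The 12 measured genes of antigen loading and proteolysis had a median difference of -0.09, with 0 of 9 tested past the threshold, beside 1.36% of tested genes called lower and 1.21% called higher. H2-DMb2 had -1.13 by its brightest probe set (limma adjusted p = 0.116), with 176 and 161 on the KO arrays, against 274 and 547 on the WT arrays. It was -0.65 without WT replicate 2. Marchf8, a ubiquitin ligase of membrane proteins, had 0.63 (adjusted p = 0.147). The proteases Ctsb and Ctsd, which act in the same endosomes, had 0.04 each. Ctss, the protease that trims the invariant chain, gave 1384 and 2502 on the KO arrays, against 3018 and 2456 on the WT arrays, so its groups overlapped.

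The factors that occupy class II promoters had a median of -0.18 over 8 genes, all tested and 0 past the threshold. Of the 8, 5 were lower and 1 higher on both KO arrays, beside 24.8% and 23.3% of all genes. Nfyc, a subunit of the Y box factor NF-Y, had -0.39 (limma adjusted p = 0.178), and the RFX subunit gene Rfx5 had -0.15. Nlrc5, the relative of Ciita that drives class I genes, had 0.58 (adjusted p = 0.128), with 505 and 440 on the KO arrays, against 319 and 301 on the WT arrays. Ciita and Nlrc5 thus stood on opposite sides of 0 without either passing.

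MHC class I genes, which present peptides made inside the cell, stood close to 0. Their median was 0.15 over 14 genes, 0 of 14 tested passed, and the heavy chain genes H2-K1 and H2-D1 had 0.08 and 0.00. Tapbp, the peptide loading factor tapasin, had 0.33 (limma adjusted p = 0.188) and Psmb10, an immunoproteasome subunit, had 0.28 (adjusted p = 0.357). Class I genes next to the class II genes in gene order also showed no lower KO level, with Tap1 at 0.19 and Tap2 at 0.11.

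Genes of the interferon gamma pathway had a median of 0.30 over 17 genes, of which 8 were higher and 2 lower on both KO arrays. Over all genes, 23.3% were higher and 24.8% lower on both KO arrays. Of 14 tested, 2 rose and 0 fell, beside 1.21% of tested genes called higher and 1.36% called lower. Irf2, an interferon regulatory factor, rose to 1239 and 1184 on the KO arrays, against 663 and 586 on the WT arrays (log2 difference 0.94, SE 0.15, limma adjusted p = 0.0369). Ifngr1, a receptor chain for interferon gamma, rose to 2750 and 3293 on the KO arrays, against 1691 and 1763 on the WT arrays (0.80, SE 0.14, adjusted p = 0.0484). Ifngr2, the other chain of that receptor, lay lower, with 877 and 1016 on the KO arrays, against 1250 and 1321 on the WT arrays (-0.44, adjusted p = 0.171). The calls of Irf2 and Ifngr1 did not hold without WT replicate 1, without WT replicate 2 or with no filter. Ifng itself, the interferon gamma gene, was far under the array median on all 4 arrays.

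Markers of the cells that carry class II differed in direction. Of the pan-leukocyte list, 0 of 6 passed, and the median was -0.51. Its summed signal was 5545 to 7072 on the KO arrays, against 8454 to 8551 on the WT arrays. Of the 6, 4 were lower and 0 higher on both KO arrays, beside 24.8% and 23.3% of all genes. Ptprc, the leukocyte surface phosphatase CD45, gave 1151 and 1072 on the KO arrays, against 1790 and 1904 on the WT arrays (-0.73, limma adjusted p = 0.0507). Cd52 had -0.91 (adjusted p = 0.0517), and it passed without KO replicate 1 (-1.08, adjusted p = 0.0286). The part of leukocyte content in the class II values was not tested.

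B cell markers had a median of -0.79 over 10 genes, but 8 were under the limit, and 4 were below the array median on all arrays. None of the 2 tested passed, Blnk with -0.36 and Cd37 with 0.27, and 7 of 10 were lower on both KO arrays, beside 24.8% of all genes. Their summed signal was 1190 to 1371 on the KO arrays, against 1601 to 2024 on the WT arrays. Ms4a1, which encodes the B cell surface protein CD20, gave 43.8 and 39.2 on the KO arrays, against 102 and 170 on the WT arrays. Cd79b, a chain of the B cell receptor complex, gave 58.4 and 89.1 on the KO arrays, against 111 and 263 on the WT arrays. Both were highest on WT replicate 2. Blnk was -0.18 without WT replicate 1. The part of B cells in the class II values was not tested.

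Dendritic cell markers split. Their median was -0.32 over 11 genes, and 0 of 8 tested passed. Of the 11, 5 were lower and 2 higher on both KO arrays, beside 24.8% and 23.3% of all genes. The summed signal overlapped, with 6837 to 7701 on the KO arrays and 6868 to 7593 on the WT arrays. Most of that sum came from Fscn1 and Clec10a, which went in opposite directions (-0.36 and 0.73). Batf3, a transcription factor needed by cross-presenting dendritic cells, gave 157 and 152 on the KO arrays, against 280 and 299 on the WT arrays (-0.84, limma adjusted p = 0.0689). Ccr7, the homing receptor of migrating dendritic cells and T cells, gave 3.18 and 2.03 on the KO arrays, against 42.1 and 45.0 on the WT arrays, all below the array medians. Cd209a had 1.07 in the opposite direction (adjusted p = 0.0635), and it passed without KO replicate 2 (1.37, adjusted p = 0.0141). The part of dendritic cells in the class II values was not tested.

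Macrophage markers had mostly higher signals in KO, opposite to class II. Their median was 0.48 over 12 genes, 0 of 12 tested passed, 7 were higher on both KO arrays, beside 23.3% of all genes, and 0 were lower on both. Their summed signal was 45333 to 45578 on the KO arrays, against 34821 to 39304 on the WT arrays. Cd14, a coreceptor for bacterial lipopolysaccharide, had 0.80 (limma adjusted p = 0.110) and the complement gene C1qc had 0.65 (adjusted p = 0.123). Csf1r, the receptor that macrophages depend on, gave 7279 and 6897 on the KO arrays, against 7047 and 6303 on the WT arrays. Cd14 passed without KO replicate 1 (1.10, adjusted p = 0.0252) and was 0.50 without KO replicate 2. The part of macrophages in the class II values was not tested.

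The remaining lists give the state of the tissue around these cells. T cell markers were dim, with 7 of 9 under the array median on all arrays, a median of -0.55, 0 of 1 tested past the threshold and Cd3e at -1.21 (limma adjusted p = 0.514), which was 0.32 without KO replicate 1. Of the lymph node stroma list 3 genes were measured and 0 of 2 tested passed, with Madcam1 at -1.13 (adjusted p = 0.132) and Cxcl13 at 2.06 (adjusted p = 0.212). Cxcl13 gave 510 and 2259 on the KO arrays, against 478 and 123 on the WT arrays, and passed without KO replicate 1 (3.12, adjusted p = 0.0374). Mammary epithelium markers had a median of -0.50 with 0 of 11 past the threshold. Their summed signal was 28581 and 46930 on KO replicates 1 and 2, against 42038 and 43534 on WT replicates 1 and 2, so the KO arrays differed from each other far more than they did in class II genes. Krt5 had -0.91 (adjusted p = 0.254) and Cldn7 -0.90 (adjusted p = 0.120). Both passed without KO replicate 2, at -1.58 (adjusted p = 0.00348) and -1.29 (adjusted p = 0.00824), and stood at -0.25 and -0.50 without KO replicate 1.

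Adipocyte markers had a median of 0.11 with 0 of 6 past the threshold, Lep at -0.76 (limma adjusted p = 0.6) and Cidec at 0.28 (adjusted p = 0.311). Lep was 0.43 without KO replicate 2. Skeletal muscle markers had a median of 2.68, and 5 of 10 rose, beside 1.21% of tested genes called higher. In this list 9 of 10 were higher on both KO arrays, beside 23.3% of all genes. Among those that rose were Myh4, a myosin of fast fibres, by 3.30 (adjusted p = 0.0138), the troponin gene Tnnc2 by 2.85 (0.0297) and Myh1, another myosin, by 2.51 (0.0395). These 3 calls were lost without WT replicate 2 and with no filter, and that of Myh1 also with eBayes without trend. The summed muscle signal was 6932 to 12492 on the KO arrays, against 1581 to 3423 on the WT arrays, and its part in the class II values was not tested.

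**Figure D4:**
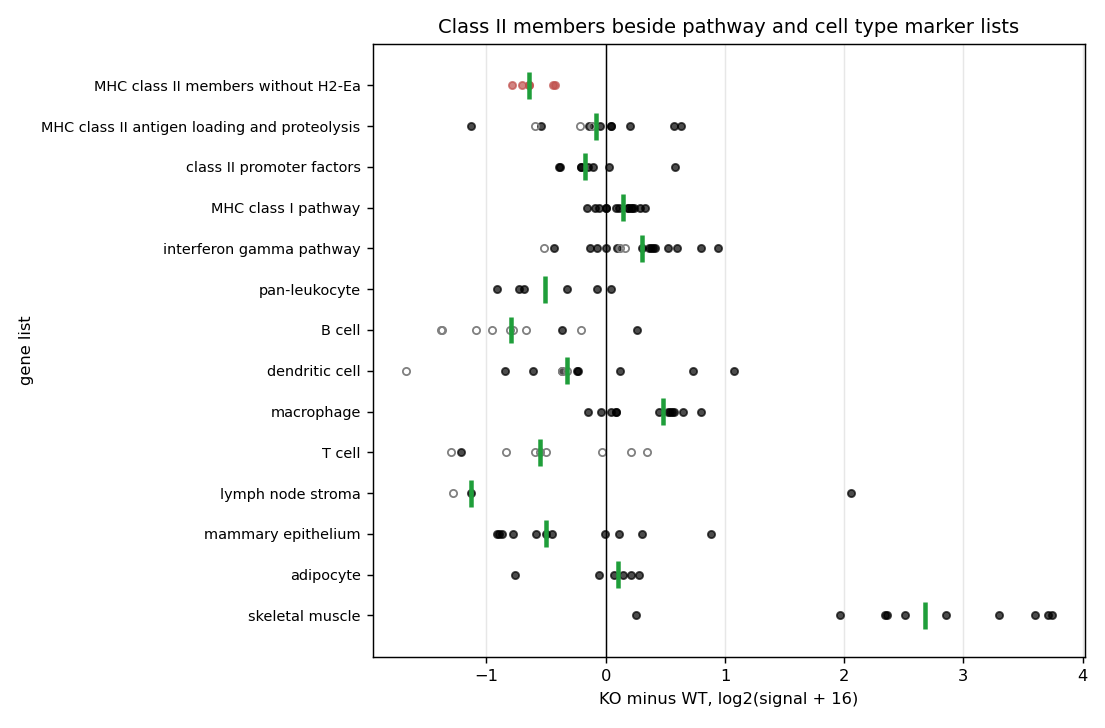
KO minus WT on the log2(signal + 16) scale for 6 class II members (red, without H2-Ea) and the genes of 13 other lists, 1 point a gene by its brightest probe set, open where under the limit for testing, with the median of each list as a green bar. The class II median lies at -0.64, those of class I and macrophage lists at 0.15 and 0.48.

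The genes with the pattern most like the mean of H2-Aa, H2-Ab1, H2-Eb1 and Cd74 over the 4 arrays were Dera, Dock8 and Mex3b. Their root mean square distances from it were 0.01, 0.03 and 0.03 on the centred log2 scale. Dock8, a guanine nucleotide exchange factor of leukocytes, gave 598 and 564 on the KO arrays, against 991 and 868 on the WT arrays (-0.66, limma adjusted p = 0.0774). Dera, an aldolase of deoxyribose phosphate, gave 599 and 559 on the KO arrays, against 991 and 828 on the WT arrays (-0.63, adjusted p = 0.0943). Distances were not scaled for the range of a profile, which was far wider for H2-Ea, so its distances cannot be compared with these. The nearest to H2-Ea were Angptl8, Ppp1r3b and Slc2a5, at distances of 1.20, 1.57 and 1.75. Angptl8, an insulin-regulated factor of fat and liver, gave 770 and 274 on the KO arrays, against 6981 on WT replicate 1 and 1222 on WT replicate 2.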

How the data were processed

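The values deposited by the authors are linear intensities, 1 for each probe set of an Affymetrix array, and MAS5 is the tool that the submitters' processing notes name. Its version and settings are not given in the sources used here. Genotype was taken from the labels, and replicates were numbered in accession order. Of 45101 probe sets, 64 controls were left out. Symbols came from the platform annotation, 34945 probe sets had 1 symbol, and 0 symbols changed through Entrez identifiers. The limma fit (version 3.58.1, R 4.3.3, eBayes with trend) used log2(signal + 16) on probe sets with a mean at or above the median of 7.15 (signal 126), with 2 residual degrees of freedom. It was tested on simulated data. The fit was repeated with quantile normalization, median centring, a pseudocount of 1 or 64, no filter, a filter at the 75th percentile, no trend, the mean of a gene's probe sets, and each array left out. A gene's brightest probe set stood for it in lists. The p-values cover just the spread of these 4 arrays, and permuting 2 against 2 exactly cannot give a two-sided p below 0.333. The number of arrays limits the precision. Detection calls were not used here.

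Members and lists were chosen with earlier results of these data known. All members are named. From each other list up to 3 genes past the threshold with the smallest p are named, or the 2 largest differences among its tested genes where none passed, with the 3 genes nearest in pattern. Stat5a, Stat5b, Krt8, Rfx5, Ctsb, Ctsd, Ctss, Tap1, Tap2, H2-K1, H2-D1, Ifng, Ifngr2, Ms4a1, Cd79b, Ccr7, Fscn1, Clec10a, Csf1r, Notch4, Amigo2 and the genes next to H2-Ea were added after their values were seen.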

Additional observations from a re-analysis of the deposited data

How the results depend on the processing

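Member probe sets past the threshold numbered 2 with a pseudocount of 64 and 3 with quantile normalization. They numbered 0 with each array centred on its median, with no filter, with a filter at the 75th percentile and with eBayes without trend. Over all probe sets 450 passed, against 38 with no filter, 182 with the 75th percentile filter and 205 without trend. With 1 array left out the count ran from 67 to 1021 over all probe sets and from 0 to 1 among members. The member median was -0.64 and ran from -0.73 to -0.55 with an array left out. Without H2-Ea it ran from -0.67 to -0.54, and it was -0.56 with median centring. Of the 12 member probe sets tested in the values as reported, none changed direction in the 8 to 12 settings that tested it. The dim 1459872_x_at of H2-DMa, at 0.06, was -0.01 without KO replicate 1. Cd3e ran from -2.74 without KO replicate 2 to 0.32 without KO replicate 1 (adjusted p = 0.0114 to 0.863 over its settings). Lep ran from -1.95 without KO replicate 1 to 0.43 without KO replicate 2 (adjusted p = 0.0134 to 0.878). The cause was not tested. With 1 array left out, the lone array is assumed to vary like the other genotype. No paired analysis was possible because the labels give no replicate numbers. Detection calls were not used here, so for the 5 dim member probe sets background was not told from signal.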
